A study of Mus musculus with 6 samples.

Results

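Paip1 and 7 of its relatives were followed across 6 RNA-seq libraries of mouse MII eggs, which are ovulated, unfertilized and halted in the second meiotic division. The relatives were 2 other proteins that bind poly(A)-binding protein (Paip2 and Paip2b), 3 cytoplasmic poly(A)-binding proteins (Pabpc1, Pabpc1l and Pabpc4) and 2 nuclear-type ones (Pabpn1 and Pabpn1l). They were found by symbol, and all 8 were among the 24062 genes of the count table and among the 10667 that passed the expression filter. Paip1 was selected on its counts in these libraries, which were low in R26K eggs, so that its difference there is described without a test. The other members were taken by family.

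Eggs came from super-ovulated females aged 8 weeks that carried the multicolour histone transgene HISRainbow and the recombinase Figla-iCre, which acts in oocytes. R26K eggs expressed H3.3R26K-eCFP, in which arginine 26 of the replacement histone H3.3 is lysine. K27R eggs expressed H3.3K27R-mCherry, in which lysine 27 is arginine, and H3.3 eggs expressed unmutated H3.3-eGFP. Each group had 2 libraries, called biological replicates in the labels. Every form had a tag of its own, so tag and substitution cannot be told apart, and the labels do not give the number of eggs or females in a library.

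The poly(A) tail of a messenger RNA is coated by poly(A)-binding proteins. In the cytoplasm they touch the cap-binding complex, which brings the ends of the message together and favours translation, and they also guard the tail. PAIP1 resembles part of the scaffold eIF4G, binds poly(A)-binding protein and the helicase eIF4A, and stimulates translation, while PAIP2 and PAIP2B compete for poly(A)-binding protein and repress it. These roles were worked out largely in human cells. A fully grown oocyte transcribes little, so that its protein supply depends on stored messages whose tails are lengthened or shortened in the cytoplasm.

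Tails are added downstream of the poly(A) signal, so the annotated 3′ ends of 6 members are shown, as 30-base windows of GENCODE M21 transcripts on mm10, with the poly(A) signal in capitals. Paip1 has ends at different places, of which the longest coding transcript (Paip1-201) and a shorter one (Paip1-202) are given. The windows lie at chr13:119458171-119458200 and chr13:119457356-119457385 on the plus strand. Those of the others lie at chr15:36595664-36595693 (Pabpc1, minus), chr4:123298886-123298915 (Pabpc4, plus), chr6:83805401-83805430 (Paip2b, minus), chr2:164050505-164050534 (Pabpc1l, plus) and chr8:122619473-122619502 (Pabpn1l, minus).
Paip1-201: ttagaatttgaaAATAAAacttagtttgtt
Paip1-202: aatcgattttgaAATAAAtgaaatgttgaa
Pabpc1-201: aattcttgctttAATAAAaattccttaaac
Pabpc4-204: ctgcatatattaAATAAAtttactttccct
Paip2b-201: atccaaccaaacAATAAAgctgactgcata
Pabpc1l-201: tttgctttatatATTAAAaaatgctgcaaa
Pabpn1l-201: agaatgtaaattATTAAActtgaatatatt
The oocyte forms Pabpc1l and Pabpn1l carried the variant ATTAAA and no AATAAA in their last 100 bases, and the others shown carried AATAAA, with ATTAAA besides in Paip1-201 and Pabpc4-204. Pabpn1-207, the longest coding transcript of Pabpn1, held neither, and Paip2-205, that of Paip2, held AATAAA and no TTTTAT. Over the longest transcripts of 19661 coding genes in the table, 62.6% held AATAAA and 19.9% held ATTAAA in that stretch of the sense strand. Either or both were held by 76.5%. The letters TTTTAT, a form of the cytoplasmic polyadenylation element, were found upstream of the signal in Paip1-202 and Pabpc4-204, at a distance of 54 bases in each, but not in the last 100 bases of Paip1-201, Pabpc1-201, Paip2b-201, Pabpc1l-201 or Pabpn1l-201. Among the longest transcripts of the coding genes, of which Paip1-202 is not one, 13.3% held them in the last 100 bases. Gene counts do not tell which end was used.

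The libraries held 39603440 and 33786225 counts in R26K, 11557291 and 10803477 in K27R, against 12748821 and 11452906 in H3.3. Genes with a count numbered 12135 and 12112 in R26K, 10715 and 7405 in K27R, against 7590 and 7392 in H3.3, and 2210 of the tested genes had none in H3.3. Of 12 egg markers, among them Zp3, Gdf9 and H1foo, all had counts in every library, with sums of 45588 and 45192 CPM in R26K, 41878 and 54659 in K27R, against 44002 and 47237 in H3.3. CPM are counts divided by library size in megareads, with TMM scaling of the sizes. H1foo, at 15750 to 24990 CPM, and Gdf9, at 11040 to 16125 CPM, made up most of each sum. For R26K against H3.3, 9 of the 12 egg markers had a log2 fold change below 0 and 3 above, with a median of -0.42. By edgeR 0 of them passed, and DESeq2 called 2 lower and 0 higher, where it called 15.4% of all tested genes. Of 18 markers of cumulus and granulosa cells, 15 and 12 had counts in R26K, 12 and 4 in K27R, against 5 and 11 in H3.3, and their sums were 2092 and 2039 CPM in R26K, 1971 and 1417 in K27R, against 976 and 1820 in H3.3. Serpine2 made up most of each sum, at 941 to 1914 CPM. Inha, Cyp19a1 and Tnfaip6 stood at 97.5, 144 and 186 CPM in H3.3 replicate 2 and at 0 in H3.3 replicate 1, while Lhcgr had no count in any library and Amh had 1 count at most. Of 15 blood, immune, stromal and epithelial markers found in the table, 3 to 6 had counts, with sums from 26.5 to 174 CPM, of which Pecam1 gave 15.4 to 156 CPM, and Ptprc was at 0 throughout. The part of these cells in the results was not tested. The median gene among the 2858 with a mean of at least 50 CPM differed 1.19-fold between the R26K libraries, 1.49-fold between the K27R libraries and 1.58-fold between the H3.3 libraries.

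Paip1 (chromosome 13, 119428601 to 119458218, ENSMUSG00000025451.15) had 7434 and 4234 counts in the R26K libraries, 68433 and 76326 in the K27R libraries, against 81742 and 78158 in the H3.3 libraries. In CPM these were 202 and 128 in R26K, 5573 and 7248 in K27R, against 6263 and 6641 in H3.3. Both R26K libraries lay far below the other 4, and the K27R libraries lay on either side of the H3.3 libraries. Scaled to transcript length, Paip1 ranked 22 and 20 among 23666 genes in K27R and 21 and 20 in H3.3, and 941 and 1369 in R26K. It was among the most abundant messages of K27R and H3.3 eggs. GENCODE lists no near-identical copy of it (95% identity over at least 200 bases) and no overlapping exon of another gene.

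In R26K eggs Paip1 averaged 165 ± 52.2 CPM and in H3.3 eggs 6452 ± 268 (SD, n = 2 each). The R26K level was 39.1-fold lower (log2 fold change -5.29 ± 0.33, SE), with a 95% interval from -6.10 to -4.48. This is the difference it was selected on. K27R eggs averaged 6410 ± 1184 CPM (SD, n = 2), and their log2 fold change relative to H3.3 was -0.0094 ± 0.28. Its 95% interval ran from -0.69 to 0.67, and its sign changed with the scaling (edgeR adjusted p = 1). Against R26K, which is the same low value seen from the other side, the fold change in K27R was 5.28 ± 0.33. Corrected for the GC content and length of transcripts, the R26K value was -4.71 ± 0.29, and with every library thinned to the smallest, -5.35 ± 0.32. In pools of eggs, fewer eggs with the message and less message per egg cannot be told apart.

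**Figure D1:**
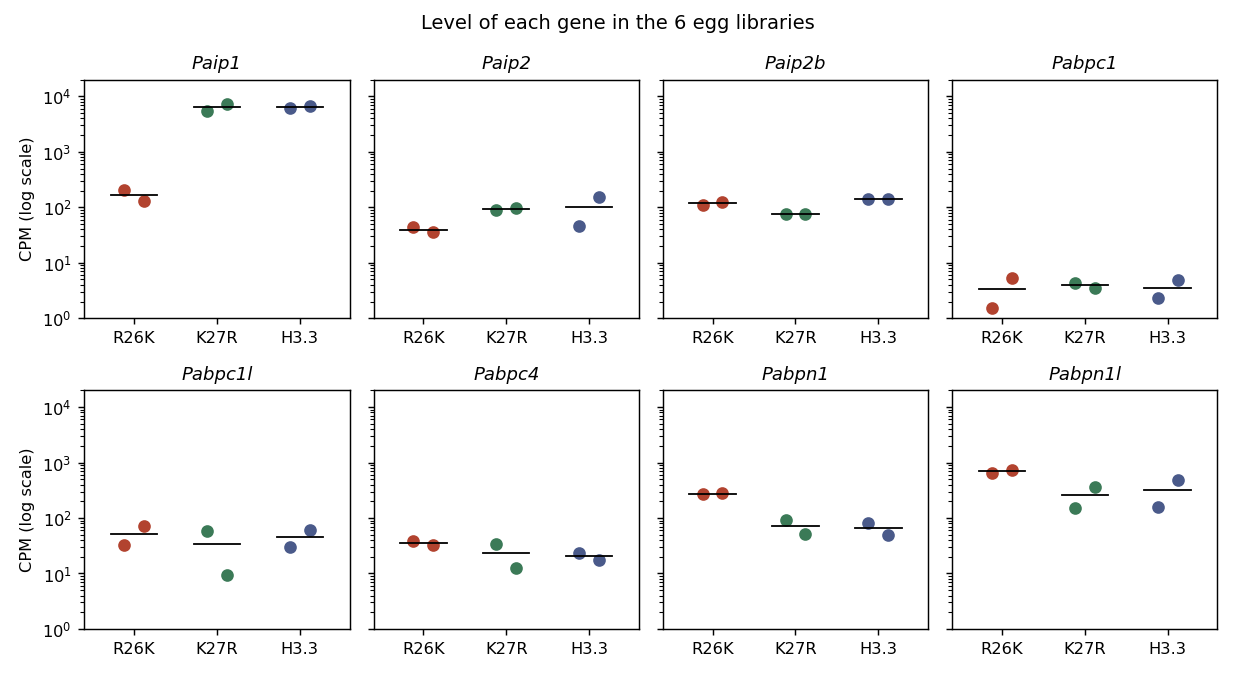
Level of each of the 8 genes (CPM, log axis) in R26K, K27R and H3.3 eggs. Points are libraries and bars are means of 2. Paip1 stands at 128 to 202 CPM in R26K and at 5573 to 7248 CPM in the other 4 libraries.

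The inhibitors of poly(A)-binding protein, Paip2 and Paip2b, summed to 55.1 and 54.6 CPM per kb of transcript in R26K, 76.5 and 81.2 in K27R, against 64.6 and 133 in H3.3, where Paip1 was at 79.1 and 50.2 in R26K, 2185 and 2841 in K27R, against 2455 and 2603 in H3.3. The contrast between the groups rests on the Paip1 counts it was selected on, and is a description. Paip2 (chromosome 18, 35598617 to 35617187) had 43.6 and 35.8 CPM in R26K, 90.0 and 97.1 in K27R, against 46.2 and 154 in H3.3. The R26K libraries were the lowest, but the H3.3 libraries differed 3.34-fold from each other, and the difference between R26K and H3.3 did not pass (log2 fold change -1.34 ± 0.70, edgeR adjusted p = 0.300). Paip2b (chromosome 6, 83805401 to 83831741) had 109 and 126 CPM in R26K, 76.2 and 76.9 in K27R, against 139.9 and 139.4 in H3.3. Its replicates were close, with K27R below R26K and R26K below H3.3, and no group overlapped another. None of these steps passed the test. The log2 fold change of Paip2b relative to H3.3 was -0.25 ± 0.40 in R26K (edgeR adjusted p = 0.798) and -0.87 ± 0.40 in K27R (0.522). Between K27R and R26K it was -0.62 ± 0.40 (0.670). With the correction for GC content and length, R26K stood at -0.51 for Paip2 and -0.83 for Paip2b relative to H3.3.

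Among the cytoplasmic poly(A)-binding proteins, Pabpc1l, also named Epab, is the embryonic form that takes the place of PABPC1 in oocytes and early embryos. Pabpc1l (chromosome 2, 164025450 to 164050538) had 32.4 and 72.1 CPM in R26K, 58.1 and 9.21 in K27R, against 30.2 and 61.9 in H3.3. All groups overlapped, and the K27R libraries differed 6.30-fold from each other. The log2 fold change relative to H3.3 was 0.18 ± 1.10 in R26K (edgeR adjusted p = 0.961) and -0.45 ± 1.10 in K27R (0.983), and the R26K value was -1.38 with the correction for GC content and length. Pabpc1 (chromosome 15, 36595661 to 36609668), the main form of somatic cells, had only 56 and 174 counts in R26K, 54 and 37 in K27R, against 30 and 57 in H3.3, or 1.52 to 5.26 CPM over all libraries. The R26K libraries of Pabpc1 differed 3.46-fold from each other, and no difference between groups was detectable, since the 95% interval of its log2 fold change between R26K and H3.3 ran from -4.92 to 4.77. Pabpc4 (chromosome 4, 123262351 to 123298925), an inducible form, had 38.5 and 32.1 CPM in R26K, 34.2 and 12.5 in K27R, against 23.1 and 17.4 in H3.3. Its R26K libraries lay above the H3.3 libraries, and the difference did not pass (log2 fold change 0.80 ± 1.12, edgeR adjusted p = 0.760), standing at -0.34 with the correction for GC content and length. GENCODE holds 9 near-identical copies of Pabpc4 and 1 of Pabpc1, and how reads with several places were treated was not given, so these levels are less certain.

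Scaled to transcript length, the 3 cytoplasmic forms summed to 26.7 and 42.8 CPM per kb in R26K, 37.2 and 9.19 in K27R, against 21.1 and 33.6 in H3.3. Pabpc1l made up 51.6% and 71.6% of this sum in R26K, 66.3% and 42.6% in K27R, against 60.8% and 78.2% in H3.3. The ratio of Paip1 to the summed cytoplasmic forms was 2.97 and 1.17 in R26K, 58.7 and 309 in K27R, against 116 and 77.4 in H3.3. The ratio was above 1 in every library. Its low values in R26K follow from the Paip1 counts that Paip1 was selected on, since the sums of the cytoplasmic forms overlapped between the groups. Even coverage along transcripts is assumed in these ratios and was not tested.

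**Figure D2:**
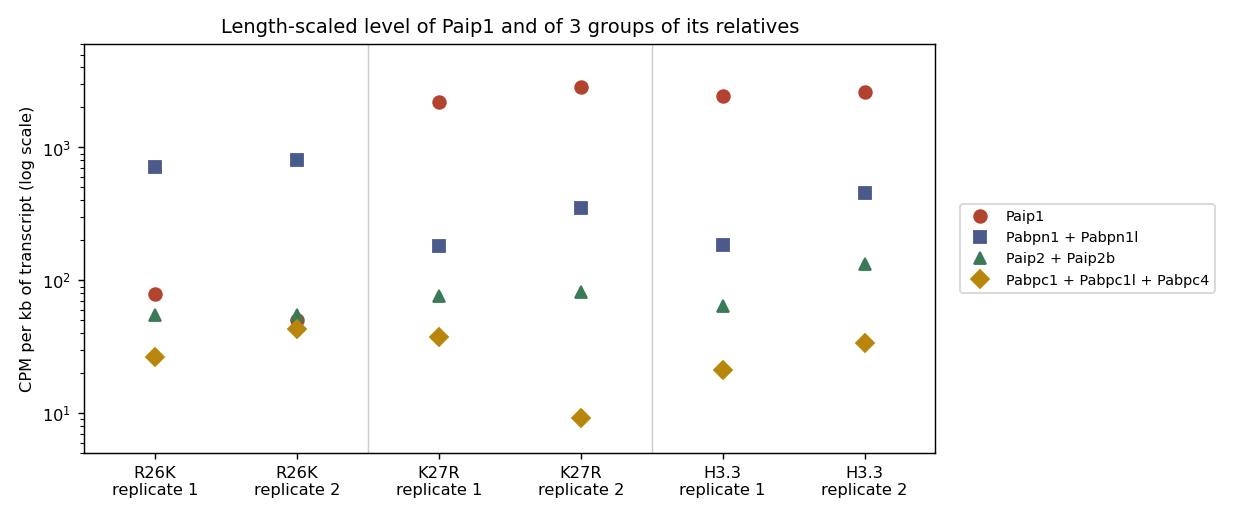
Length-scaled level (CPM per kb of the longest coding transcript, log axis) of Paip1 and of the sums of its relatives in each library. Paip1 stands highest in K27R and H3.3 at 2185 to 2841, while in R26K the nuclear-type pair is highest, at 713 and 809.

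The nuclear-type pair had more CPM in both R26K libraries than in the other 4, but neither gene passed edgeR's test. PABPN1 controls tail length as the tail is made in the nucleus, and Pabpn1l, also named ePABP2, is its oocyte and embryo form. Pabpn1 (chromosome 14, 54892500 to 54898169) had 270 and 277 CPM in R26K, 90.8 and 52.0 in K27R, against 82.0 and 50.3 in H3.3. Both R26K libraries lay above the other 4. The log2 fold change was 2.05 ± 0.48 in R26K relative to H3.3 (edgeR adjusted p = 0.137) and -1.94 ± 0.48 in K27R relative to R26K (0.217). DESeq2 called both, with adjusted p of 0.0025 and 0.0058. With the correction for GC content and length the values were 0.21 ± 0.42 and -0.34 ± 0.42.

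Pabpn1l (chromosome 8, 122619471 to 122622739) had 644 and 749 CPM in R26K, 149 and 367 in K27R, against 161 and 492 in H3.3. It was again highest in the R26K libraries, but it differed 2.46-fold within K27R and 3.06-fold within H3.3. The log2 fold change was 1.09 ± 0.63 in R26K relative to H3.3 (edgeR adjusted p = 0.344) and -1.43 ± 0.63 in K27R relative to R26K (0.416), and with the correction it was 0.0046 ± 0.60 and -0.41 ± 0.60. Scaled to length, Pabpn1l made up 78.7% and 80.7% of the nuclear-type pair in R26K, 71.8% and 91.6% in K27R, against 75.2% and 93.8% in H3.3. The pair summed to 713 and 809 CPM per kb in R26K, 181 and 349 in K27R, against 186 and 457 in H3.3. Pabpn1 overlaps exons of Gm20521 on the same strand. Gm20521 is also listed as near-identical to Pabpn1 in sequence, so the counts of Pabpn1 are less certain. The GC content of the transcripts was 39.8% for Paip1, 40.2% for Paip2, 46.3% for Paip2b and 47.8% for Pabpc1, and 52.5% for Pabpc4, 54.8% for Pabpc1l, 55.7% for Pabpn1l and 56.6% for Pabpn1.

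Of the 7 members other than Paip1, 0 passed edgeR's test for R26K against H3.3, where 0.619% of all tested genes passed, and 1 (Pabpn1) had an unadjusted p under 0.05, which 21.7% of all genes had. DESeq2 called 1 of the 7, and 15.4% of all genes. Their R26K and H3.3 libraries did not overlap in 5 of 7 (above in Pabpc4, Pabpn1 and Pabpn1l, below in Paip2 and Paip2b), where 60.1% of all tested genes did not overlap. For K27R against H3.3, 0 of 7 passed by edgeR, where 0.00% of all genes passed. None had an unadjusted p under 0.05, which 7.12% of all genes had, and DESeq2 called 0 of the 7 and 6.42% of all genes. The groups did not overlap in 1 of 7 (Paip2b), against 25.5% of all genes. For K27R against R26K, 0 of 7 passed, with 0.375% of all genes called, 1 (Pabpn1) had an unadjusted p under 0.05, as 13.2% of all genes had, and DESeq2 called 1 of the 7 and 7.12% of all genes. The groups did not overlap in 4 of 7, against 53.8% of all genes. The comparisons share libraries. The median log2 fold change of the 7 relative to H3.3 was 0.18 in R26K and -0.10 in K27R, beside 0.66 and 0.12 over all tested genes, and between K27R and R26K it was -0.62, beside -0.32. Over the 2858 genes that averaged 50 CPM or more, the medians were 0.03 in R26K and 0.02 in K27R relative to H3.3. With upper-quartile scaling the median of all tested genes in R26K was 0.47, and with the correction for GC content and length it was 0.13.

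**Figure D3:**
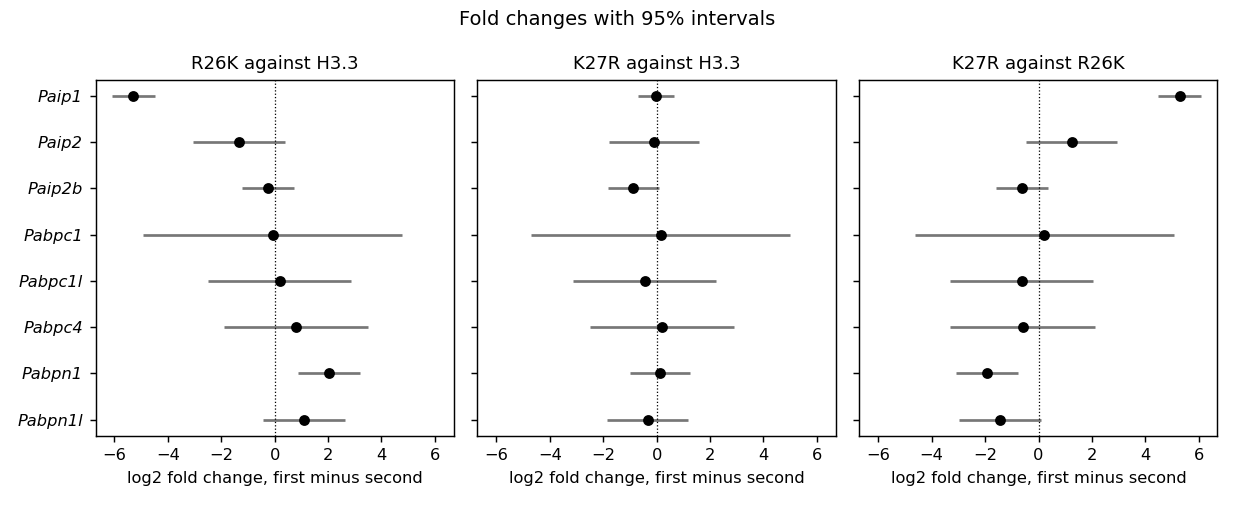
Log2 fold change (first group minus second) of the 8 genes in the 3 comparisons, with 95% intervals from the edgeR fit. The interval of Paip1 in K27R against H3.3 runs from -0.69 to 0.67, while that of Pabpc1 in R26K against H3.3 runs from -4.92 to 4.77.

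Genes of translation initiation and partners of poly(A)-binding protein were then set beside the members. Of 16 listed genes of cap binding and scanning, 14 were tested. The list also held the eIF4E-binding proteins Eif4ebp1, Eif4ebp2, Eif4ebp3 and Eif4enif1, so it was not limited to factors that favour translation. By edgeR 1 fell in R26K relative to H3.3, 0 rose and 13 did not pass, where 0.619% of all tested genes passed. Of the 14, 2 had an unadjusted p under 0.05, as 21.7% of all genes had. DESeq2 called 1 higher and 1 lower, where it called 15.4% of all genes. The factor that fell was Eif4a2 (chromosome 16, 23107444 to 23114136), which encodes an eIF4A helicase, the factor that PAIP1 binds besides poly(A)-binding protein. Eif4a2 had 63.1 and 75.6 CPM in R26K, 511 and 686 in K27R, against 367 and 535 in H3.3. Its R26K libraries did not overlap the others. Relative to H3.3, the log2 fold change was -2.70 ± 0.33 in R26K (edgeR adjusted p = 0.0371) and 0.41 ± 0.31 in K27R (0.691). Between K27R and R26K it was 3.11 ± 0.34 (0.0293). With the correction for GC content and length it did not pass in R26K (-2.18 ± 0.40, adjusted p = 0.104), nor without H3.3 replicate 2 (-2.40 ± 0.33, 0.0639). Exons of 7 other genes overlap Eif4a2, small nucleolar RNAs and Rfc4 among them, and 1 near-identical copy exists, so its counts are less certain. The other eIF4A gene of the list, Eif4a1, had 102 and 84.4 CPM in R26K, 122 and 205 in K27R, against 129 and 101 in H3.3. Its R26K and H3.3 libraries overlapped, and the difference did not pass (log2 fold change -0.30 ± 0.44, edgeR adjusted p = 0.776).

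With only the groups compared or without a K27R library, the call of Eif4a2 in R26K was lost, while its fold change and SE hardly moved. Its call held in the fits without H3.3 replicate 1 (-2.96 ± 0.33), R26K replicate 1 (-2.60 ± 0.61) or R26K replicate 2 (-2.84 ± 0.63). In a fit of only R26K and H3.3 the log2 fold change was -2.70 ± 0.32 (adjusted p = 0.0705). It was -2.70 ± 0.32 without K27R replicate 1 (0.116) and without K27R replicate 2 (0.115). For K27R against R26K, Eif4a2 did not pass without K27R replicate 1 (3.305 ± 0.355, adjusted p = 0.150) or K27R replicate 2 (2.88 ± 0.36, 0.308), with the correction for GC content and length (2.54 ± 0.40, 0.113) or with only these groups fitted (3.15 ± 0.30, 0.0506). Without either K27R library, 1 gene of the whole table was called in R26K against H3.3, where 66 were called with all libraries. DESeq2 called Eif4a2 in R26K, with an adjusted p of 5.03e-11.

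The other 2 factors of that list with the highest CPM did not pass. Eif4e3, a cap-binding protein, had 1064 and 943 CPM in R26K, 816 and 863 in K27R, against 886 and 817 in H3.3. Eif4g2, a scaffold related to eIF4G, had 470 and 545 CPM in R26K, 761 and 365 in K27R, against 864 and 413 in H3.3. Both R26K libraries of Eif4e3 lay a little above the other 4, and Eif4g2 overlapped between all groups. The median log2 fold change of the 14 tested factors was -0.23 for R26K against H3.3, beside 0.66 over all tested genes.

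A further list held 15 proteins with the PAM2 motif, by which partners dock on cytoplasmic poly(A)-binding protein. All 15 were tested and 0 passed by edgeR in any comparison, while 6 had an unadjusted p under 0.05 in R26K (21.7% of all genes) and 0 in K27R (7.12%) relative to H3.3, and 5 did between K27R and R26K (13.2%). DESeq2 called 2 higher and 3 lower in R26K, where it called 15.4% of all genes, and 1 lower in K27R, where it called 6.42%, relative to H3.3. Between K27R and R26K it called 3 higher and 2 lower, beside 7.12% of all genes. Atxn2l, an ataxin-2 relative of stress granules, had 730 and 905 CPM in R26K, 86.9 and 157 in K27R, against 31.7 and 77.3 in H3.3. Its R26K libraries were highest, with a log2 fold change of 3.91 ± 0.56 against H3.3 (edgeR adjusted p = 0.0521). In edgeR fits of all libraries it passed with thinning to equal totals (adjusted p = 0.0471), no filter (0.0056) and a 10 CPM minimum on the mean (0.0351). With the replicate number as a block it passed as well (8.17e-04), as it did by DESeq2 (2.35e-09). It did not pass with upper-quartile scaling (0.0674), RLE scaling (0.0626), a robust estimate of spread (0.0509) or only the groups compared (0.0705). Nor did it pass with the correction for GC content and length (1.51 ± 0.61, 0.278). With a library left out, its log2 fold change ran from 3.39 to 4.69. Pan3, of a deadenylase that trims long tails, had 71.0 and 78.5 CPM in R26K, 195 and 487 in K27R, against 354 and 299.7 in H3.3. Its R26K libraries were lowest (log2 fold change against H3.3 -2.13 ± 0.48, edgeR adjusted p = 0.127). Pan3 passed with the replicate number as a block (0.0357) and by DESeq2 (7.20e-04), but in no other fit of all libraries. It did not pass with only the groups compared (edgeR adjusted p = 0.0705). Tob2, which brings a deadenylase to the tail, had 232 and 223 CPM in R26K, 154 and 155 in K27R, against 230 and 218 in H3.3. The median of the 15 was 0.02 for R26K against H3.3, where their groups did not overlap in 10 of 15, beside 60.1% of all tested genes.

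Other proteins of the tail were near or at 0, apart from Zc3h14, a zinc finger protein that binds poly(A). It had 85.3 and 98.8 CPM in R26K, 20.0 and 43.3 in K27R, against 14.3 and 41.6 in H3.3, and did not pass. Pabpc6 had 84 and 111 counts in R26K and 24 and 42 in K27R but none in either H3.3 library, where 3 counts would be 0.230 and 0.255 CPM. Pabpc4l had 10 counts, all in R26K replicate 2. Pabpc2 and Pabpc5 had no count in any library, where 3 counts stand for 0.0815 to 0.285 CPM. Amplified reads without molecular identifiers are not independent molecules, so these limits cover counting error alone.

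The profile of Paip1 over the 6 libraries was compared with those of 2741 other named genes whose mean reached 50 CPM. Likeness was the root mean square distance between log2(CPM + 1) values, each gene centred on its mean, so that shape and size both count. The 5 nearest were Arid5b, Klhl9, Sept2, Olfr976 and Actr2, at distances from 0.44 to 0.72, where the median gene was at 2.63. The 6 libraries are shared by all genes and the R26K libraries are the deepest, so the distances are a description. Low R26K values in the 5 genes follow from their choice by likeness to Paip1, which was selected on its low R26K counts. Arid5b, Olfr976 and Actr2 were below 50 CPM in both R26K libraries, so their means reached 50 CPM through the other groups.

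Arid5b, a DNA-binding regulator, had 2.69 and 3.18 CPM in R26K, 183 and 173 in K27R, against 225 and 312 in H3.3. Klhl9, an adaptor of a ubiquitin ligase, had 61.0 and 39.3 CPM in R26K, 643 and 1326 in K27R, against 869 and 953 in H3.3. Sept2, a septin, had 50.5 and 27.8 CPM in R26K, 448 and 725 in K27R, against 523 and 604 in H3.3. Each was low in both R26K libraries, which follows from the choice, and overlapped between K27R and H3.3. The exception was Arid5b, with both K27R values below H3.3. Olfr976, annotated as an olfactory receptor, had 6.52 and 1.27 CPM in R26K, 67.8 and 61.7 in K27R, against 105 and 60.6 in H3.3. Actr2, a subunit of the actin-nucleating Arp2/3 complex, had 34.6 and 27.1 CPM in R26K, 297 and 871 in K27R, against 404 and 741 in H3.3. Exons of Gm26566 overlap Klhl9 on the opposite strand, and Actr2 has 1 near-identical copy.

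**Figure D4:**
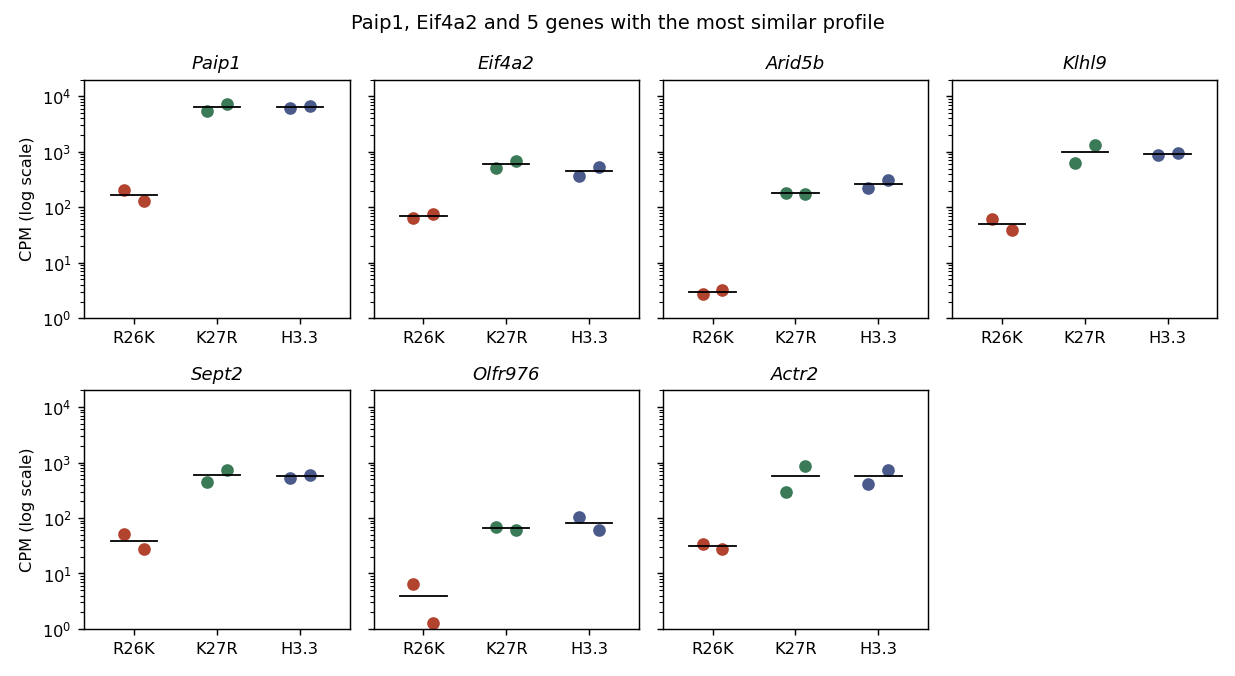
Level (CPM, log axis) of Paip1, Eif4a2 and the 5 genes with the most similar profile in R26K, K27R and H3.3 eggs. Points are libraries and bars are means of 2. In each gene both R26K libraries lie below the other 4, with Arid5b at 2.69 and 3.18 CPM and Paip1 at 202 and 128 CPM in R26K.

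Among the members themselves, only Paip2, Paip2b, Pabpn1 and Pabpn1l reached the mean of 50 CPM. Paip2 was the nearest to Paip1, 291st of the 2741 genes at a distance of 2.02. Paip2b ranked 1363rd (2.62), Pabpn1l 2128th (3.23) and Pabpn1 2307th (3.49). The fall that Paip1 was selected on enters these distances, so genes high in R26K lie far from it by construction. The nuclear-type pair, high in both R26K libraries, was farther from Paip1 than the median gene (2.63).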

How the data were processed

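For each gene symbol, the authors deposited raw counts (whole reads, not normalized) in 6 libraries. The labels' protocols name SMARTer Ultra Low cDNA and Nextera libraries, a kit that keeps no strand. The tools in the submitters' processing notes are cutadapt 1.9.1, TopHat2 2.1.0, SAMtools 1.3 and featureCounts, with the build mm10, and the sources used here do not give the annotation or the handling of multi-mapping reads. Groups and replicate numbers came from the sample titles.

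From the deposited counts, genes were filtered with filterByExpr, scaled by TMM and tested in 1 fit of all 6 libraries with edgeR 4.0.16 (glmQLFit, glmQLFTest, R 4.3.3). There were 3 residual degrees of freedom, and p-values were two-sided and Benjamini-Hochberg adjusted over 10667 genes (threshold 0.05). SE is the log2 fold change over the square root of F. Whether replicates came from separate females is not stated, so a p-value measures only how far these libraries spread. Lengths, GC content and 3′ ends came from the longest coding transcript in GENCODE M21. The steps were tested on simulated counts. DESeq2 1.42.0 and other alternatives are given at the end. Named genes were the 8 members, called genes and the 3 most abundant of 3 lists, and the 5 nearest profiles. Eif4a1 was added beside Eif4a2. A further result is not reported here. Members, lists and rules were chosen with earlier results of these data known.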

Additional observations from a re-analysis of the deposited data

How the results depend on the processing

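Over the 16 alternatives the log2 fold change of Paip1 in R26K against H3.3 ran from -5.68 to -4.71, and -4.71 came from the correction for GC content and length, which also gave 4.68 for K27R against R26K. Leaving out libraries gave -5.68 to -5.00.

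The genes called for R26K against H3.3 numbered 66, and 1644 by DESeq2, 241 with no filter, 153 with a 10 CPM minimum on the mean, 0 with only the groups compared, 25 with the GC and length correction and 1 to 193 with a library left out. For K27R against R26K they numbered 40, and 759, 156, 95, 32, 19 and 0 to 140 under the same settings. Among the fits with a library left out, both counts were lowest without either K27R library and highest without R26K replicate 1. For K27R against H3.3 there were 0, 685 by DESeq2 and 0 to 5 with a library left out. Of the members other than Paip1, DESeq2 called 1 (Pabpn1) in each R26K comparison, and no other alternative called any.

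With the replicate number as a block, 260 and 195 genes were called in the R26K comparisons, Paip1 stood at -5.30, Paip2 in K27R against H3.3 changed sign (0.033), and no member's call changed. Same-numbered libraries showed little joint deviation (correlations -0.0094, 0.069 and 0.018 over 2858 genes). The titles give only the number, and whether such libraries were prepared together was not tested.

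Signs of uncalled members changed as follows. With the GC and length correction, Pabpc1l was at -1.38 and Pabpc4 at -0.34 in R26K against H3.3, Pabpc1 at -0.14 and Pabpn1 at -0.12 in K27R against H3.3, and Pabpc1l at 0.56 and Pabpc4 at 0.37 in K27R against R26K. With upper-quartile scaling, Pabpc1l was at -0.020 in R26K against H3.3 and Paip1 at 0.025 in K27R against H3.3, where Paip1 was at 4.21e-04 with the 10 CPM minimum and at 0.0054 with only the groups compared. Leaving out a library gave, for R26K against H3.3, -1.23 to 0.56 (Pabpc1) and -0.51 to 0.79 (Pabpc1l). For K27R against H3.3 it gave -0.21 to 0.17 (Paip1), -0.71 to 1.01 (Paip2), -0.28 to 0.78 (Pabpc1), -2.32 to 0.33 (Pabpc1l), -0.69 to 0.75 (Pabpc4), -0.35 to 0.52 (Pabpn1) and -1.13 to 0.68 (Pabpn1l). For K27R against R26K it gave -0.38 to 1.37 (Pabpc1) and -2.51 to 0.16 (Pabpc1l). The cause was not tested. Thinning was added after the data were seen. Thinning left the SE of Pabpc1 in R26K against H3.3 at 2.013, against 1.996 with all reads.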
